A study of Mus musculus with 2 samples.

Results

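The cholesterol genes described here are 31 genes taken by symbol from the 33696 features of each deposited matrix, and every symbol matched exactly 1 feature in both libraries. They comprise 18 enzymes of cholesterol synthesis, 5 genes of sterol sensing (Insig1, Insig2, Scap, Srebf1 and Srebf2), 4 of sterol transport and storage (Stard4, Npc1, Npc2 and Soat1), the efflux transporters Abca1 and Abcg1, the ubiquitin ligase Mylip, and Ch25h, the enzyme that makes 25-hydroxycholesterol. RNA was read by droplet single-cell sequencing from stromal cells of whole mouse colon, sorted as living, podoplanin-positive cells without CD45, CD31 or EpCAM. The control library came from Il10ra ff mice, which carry floxed alleles of the IL-10 receptor alpha chain gene, and the Cre library from Il10ra ff; Pdgfra-cre mice, which carry the same floxed alleles and a Cre recombinase driven by Pdgfra, a gene of fibroblasts that is also active in some other mesenchymal cells. Each genotype had 2 mice aged 6 months and 1 library, and the labels do not assign cells to mice. The study asked how IL-10 receptor signalling in fibroblasts bears on interferon signalling in the large intestine. With 1 library per genotype no difference below has a replicate check: each value is given for the control and then the Cre library, and every interval is a 95% interval of counting error alone.

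Cells build cholesterol from acetyl-CoA through mevalonate, isoprenoids and squalene to lanosterol, which the late enzymes turn into cholesterol. The transcription factor SREBP2, encoded by Srebf2, switches on most of these enzymes when membrane sterol is low. SCAP carries it out of the endoplasmic reticulum, and the INSIG proteins hold it back there when sterols are plentiful. Oxysterols such as 25-hydroxycholesterol bind INSIG and keep SREBP2 inactive, and they activate the LXR receptors, which turn on Abca1, Abcg1 and Mylip. Ch25h is known as an interferon-induced gene in macrophages, and its product can be processed by Cyp7b1 into ligands that guide lymphocytes in the gut.

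The control library held 11380 barcodes with 76570611 UMIs and the Cre library 8627 barcodes with 66845139 UMIs. Of these, 10657 and 8302 cells were kept, and 115 barcodes occurred in both libraries. Fibroblast-like cells numbered 9400 and 7530. They held Pdgfra at 353 and 340.9 CPM, a gene's UMIs scaled to a common total for all cells of the group, and Pdpn at 243 and 254 CPM, whereas Ptprc, which encodes CD45, was at 0.0627 and 0.0335 CPM. Il10ra gave 0 UMIs in control fibroblast-like cells, which allows up to 0.0470 CPM, and 5 UMIs in those of the Cre library, so the targeted transcript is too rare here to check the genotype labels. Marker genes that include no member placed 1454 and 477 cells in a subepithelial class, 2971 and 2201 in a lamina propria class and 2653 and 3558 in an adventitial or trophocyte class. These names mean only that a cell resembled the markers. Of the 16930 fibroblast-like cells, 2535 lay too close between classes to be placed and 1081 had too few class markers. This left 2322 control and 1294 Cre cells without a class. The subepithelial class came mostly from the same cluster in both libraries, cluster 2, with 75.65% and 88.9% of its cells. The lamina propria class was spread over clusters 6, 8 and 7 in the control library, whereas 67.7% of it lay in cluster 1 in the Cre library. The adventitial or trophocyte class lay mainly in clusters 5 and 0 in the control library and in clusters 3, 4 and 9 in the Cre library.

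Promoters in the RefSeq table, which uses the build GRCm38.p6 and not the GRCm39 of the deposited counts, were found for 25 of the 31 members. Fdps, Fdft1, Sqle, Stard4, Npc1 and Abcg1 had no entry. Windows of 300 bases around the start were searched on both strands for TCACNCCAC, letters of a sterol regulatory element, for CCAAT, the box bound by the SREBP partner NF-Y, and for 2 GAAA repeats separated by any 2 bases, as in an interferon-stimulated response element. No 2 of these patterns are contained in each other. CCAAT was in 14 of the 15 synthesis genes with a promoter, all but Acat2, and in 7 of the 10 other members, against 41.1% of 27025 genes. TCACNCCAC was in Hmgcs1 alone among the members, against 1.44% of genes, and the paired GAAA repeats in Ebp alone, against 3.99%. The 150 bases before the start are shown for Hmgcs1, Idi1 and Msmo1, enzymes that were lower in the Cre subepithelial class, and for Ch25h, which held none of these letters. Each is written 5′ to 3′ on the gene's strand, and capitals mark a motif match, with ATTGG being CCAAT read on the opposite strand.
Hmgcs1, chr13:119690201-119690350, plus strand: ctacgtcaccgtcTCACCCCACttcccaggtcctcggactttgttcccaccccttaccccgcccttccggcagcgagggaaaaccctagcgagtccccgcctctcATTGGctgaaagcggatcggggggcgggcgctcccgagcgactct
Idi1, chr13:8885456-8885605, plus strand: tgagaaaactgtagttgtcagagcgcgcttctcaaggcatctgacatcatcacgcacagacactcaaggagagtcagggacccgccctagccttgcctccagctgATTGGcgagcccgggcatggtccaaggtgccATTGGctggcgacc
Msmo1, chr8:64733579-64733728, minus strand: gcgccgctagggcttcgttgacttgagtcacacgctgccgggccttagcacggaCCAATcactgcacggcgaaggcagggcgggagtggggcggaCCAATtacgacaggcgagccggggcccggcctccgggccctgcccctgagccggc
Ch25h, chr19:34475149-34475298, minus strand: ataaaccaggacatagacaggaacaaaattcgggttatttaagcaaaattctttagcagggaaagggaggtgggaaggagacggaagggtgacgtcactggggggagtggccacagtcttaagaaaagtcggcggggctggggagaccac
In the Hmgcs1 window the TCACNCCAC match began 137 bases before the start and the CCAAT match 45 bases before it. Idi1 had CCAAT matches 45 and 14 bases before its start, and Msmo1 had them 96 and 55 bases before its start.

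In the control library the subepithelial class held the highest levels of the synthesis enzymes among the 3 fibroblast classes. The UMIs of the 18 enzymes summed to 651 CPM (635 to 667) there, against 269.9 CPM (263 to 277) in the lamina propria class and 274.5 CPM (267 to 282) in the adventitial or trophocyte class. The subepithelial sum was 2.41 times that of the lamina propria class (2.33 to 2.50). Fdft1, Msmo1 and Sqle showed the widest gaps to the lamina propria class. Fdft1, which joins farnesyl units into squalene, was at 46.0 CPM in the subepithelial class and 10.9 CPM in the lamina propria class, a ratio of 4.21 (3.60 to 4.93). Sqle, which oxidises squalene, was at 58.5, 14.7 and 6.43 CPM in the subepithelial, lamina propria and adventitial or trophocyte classes. Msmo1, a sterol methyl oxidase, was at 43.3 CPM against 10.8 CPM in the lamina propria class, a ratio of 3.995 (3.41 to 4.69). Ebp, the sterol isomerase, did not follow this order, with 45.8, 43.8 and 45.5 CPM in the same 3 classes. A gene was counted as measured where its mean over the 2 sides was at least 10 CPM, and as higher or lower where it lay at least 1.5-fold apart on the log2(CPM + 1) scale. By this rule 11 of 15 measured enzymes were higher in the subepithelial than in the lamina propria class of the control library and none was lower, where 9.98% of all measured genes were higher and 6.98% lower. The median log2 ratio of the enzymes was 1.35, against 0.12 for all measured genes. Against the adventitial or trophocyte class 10 of 13 enzymes were higher, and none lower, where 26.8% of all measured genes were higher and 8.70% lower. Between the lamina propria and the adventitial or trophocyte class Sqle alone of 12 measured enzymes was higher and Sc5d alone was lower, where 15.2% of all measured genes were higher and 5.64% lower.

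**Figure D1:**
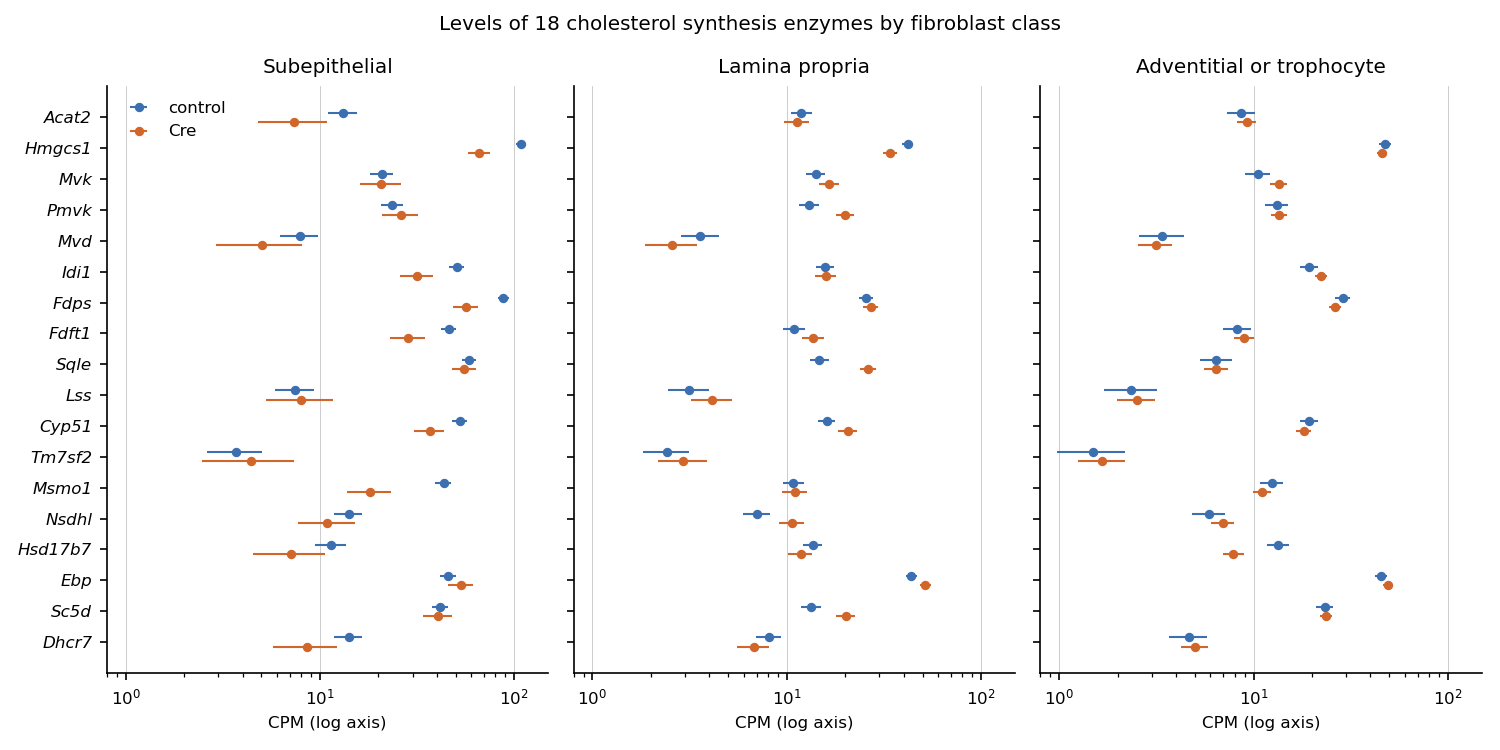
CPM (log axis) of the 18 synthesis enzymes in 3 fibroblast classes, with control in blue and Cre in orange. Points are the levels in 1 library per genotype and bars the 95% Poisson intervals, which cover counting error only; in the subepithelial panel Acat2, Hmgcs1, Idi1, Fdps, Fdft1, Cyp51 and Msmo1 have Cre points left of the control points with bars that do not meet.

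In the Cre library the subepithelial class again held the highest sum of the 3 classes, by smaller ratios. Its sum was 1.58 times that of the lamina propria class (1.49 to 1.67) and 1.76 times that of the adventitial or trophocyte class (1.67 to 1.86). The lamina propria sum was 0.983 times that of the adventitial or trophocyte class in control (0.947 to 1.02) and 1.117 times in Cre cells (1.079 to 1.157). Of 12 measured enzymes 8 were higher than in the lamina propria class, and none lower, where 13.1% of all measured genes were higher and 8.37% lower, and the median log2 ratio was 0.87. Against the adventitial or trophocyte class 7 of 11 were higher and none lower, where 34.4% of all measured genes were higher and 9.23% lower. Between the lamina propria and the adventitial or trophocyte class Sqle alone of 12 was higher and none lower, where 19.0% of all measured genes were higher and 6.44% lower.

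Between the libraries the subepithelial class showed lower levels of many synthesis enzymes in the Cre library. The 18 enzymes summed to 651 CPM in control and 484 CPM (461 to 508) in Cre cells, a ratio of 0.744 (0.705 to 0.786). Of the 14 enzymes measured in this class 7 were lower by at least 1.5-fold and none was higher, where 4.28% of all measured genes were lower and 5.76% higher. The median log2 ratio was -0.57 for the enzymes and 0.07 for all measured genes. Over all members 26 were measured, 8 were lower and 1 was higher. With 10 CPM added before the logarithm, or with a minimum of 50 CPM, 3 members in place of 8 were lower. Mvd, Lss, Tm7sf2, Hsd17b7 and Abcg1 were under 10 CPM.

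Early enzymes made up 4 of those 7. Hmgcs1, which condenses acetyl units into HMG-CoA, was at 108 CPM (102 to 115) in control and 66.2 CPM (57.8 to 75.5) in Cre cells, a ratio of 0.611 (0.527 to 0.706). Idi1, the isomerase of the isoprenoid units, was at 50.65 and 31.6 CPM, a ratio of 0.625 (0.5025 to 0.770). Fdps, which makes farnesyl diphosphate, was at 87.9 and 56.2 CPM, a ratio of 0.639 (0.544 to 0.748). For each of these 3 enzymes the intervals of the libraries did not meet. Acat2, the acetyl-CoA thiolase, had fewer UMIs behind it, with 13.1 CPM (10.98 to 15.5) and 7.39 CPM (4.78 to 10.9). The kinases between these steps had ratios near 1. Mvk was at 20.9 and 20.7 CPM with a ratio of 0.992 (0.746 to 1.305), and Pmvk at 23.6 and 26.0 CPM with a ratio of 1.10 (0.855 to 1.41).

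Squalene and sterol steps had unlike ratios. Fdft1 was at 46.0 CPM in control and 28.4 CPM in Cre cells of the subepithelial class, a ratio of 0.617 (0.490 to 0.770). Sqle, the next enzyme, was at 58.5 and 55.3 CPM with a ratio of 0.945 (0.798 to 1.115). Msmo1 had the lowest ratio of the measured members, 0.417 (0.3135 to 0.5455), with 43.3 CPM (39.4 to 47.5) and 18.04 CPM (13.8 to 23.2). Dhcr7, which carries out a last reduction on the way to cholesterol, was at 14.1 and 8.58 CPM (5.74 to 12.3). Cyp51, the lanosterol demethylase, was at 52.4 and 36.7 CPM, and its ratio of 0.6997 (0.571 to 0.852) lay inside the 1.5-fold limit on the scale used. Nsdhl, a dehydrogenase of the same demethylation, was at 14.1 and 10.9 CPM with an interval that spans 1. Ebp, at 45.8 and 53.2 CPM, and Sc5d, the sterol desaturase, at 41.7 and 40.5 CPM, had ratios of 1.16 (0.973 to 1.38) and 0.971 (0.795 to 1.18).

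**Figure D2:**
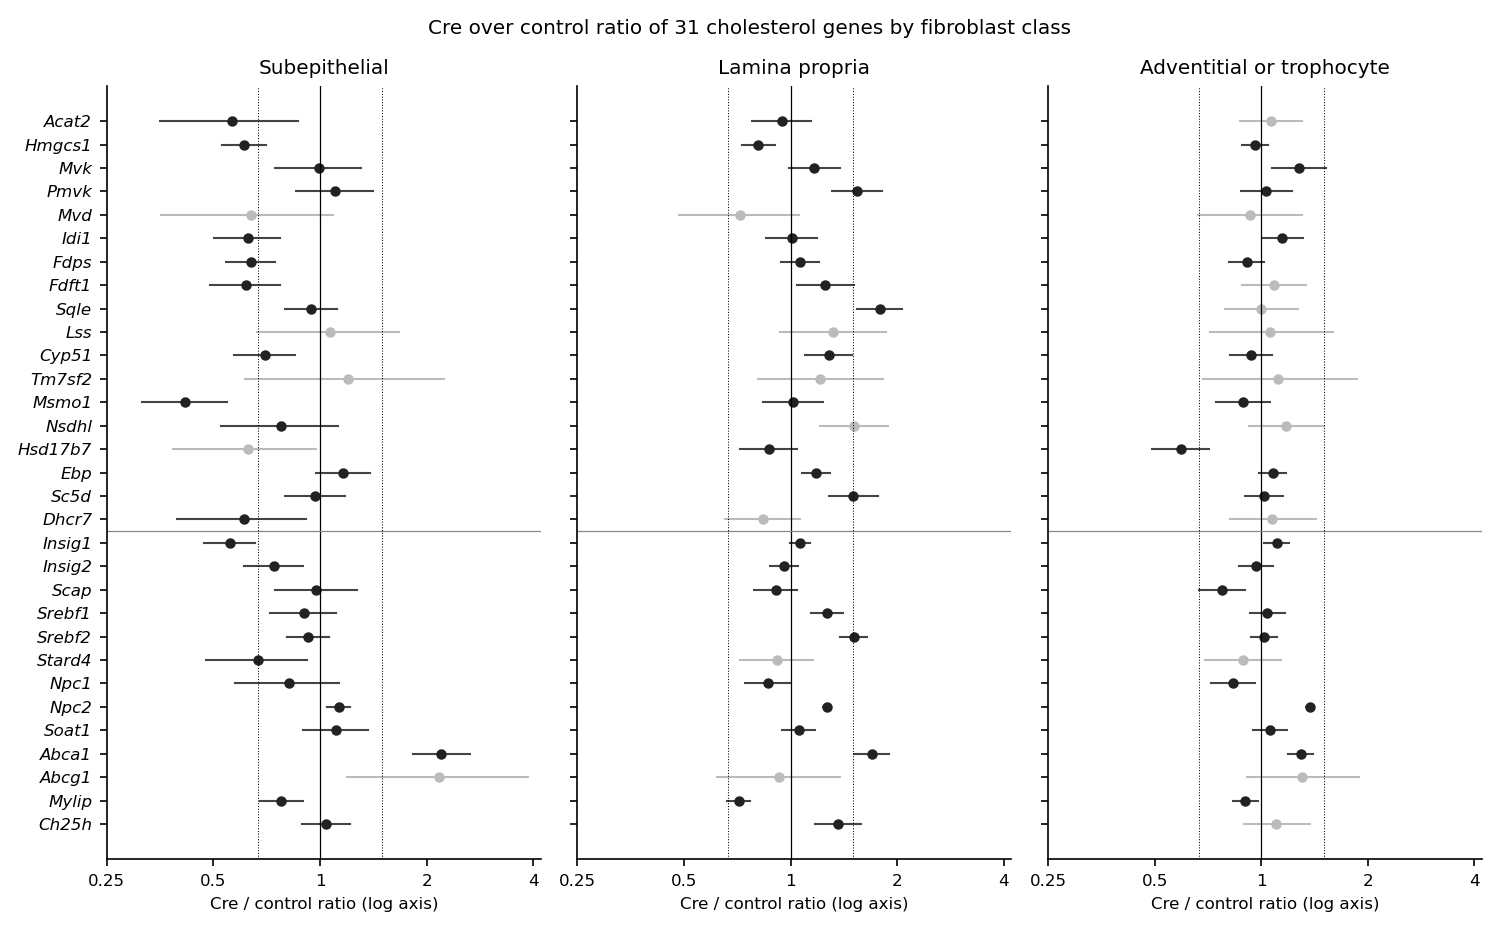
Ratio of Cre to control CPM (log axis) for the members in each fibroblast class, 1 library per genotype, with bars for the 95% binomial interval of counting error, dotted lines at 1.5-fold either way and members under 10 CPM in grey. In the subepithelial class Msmo1 lies lowest among measured members at 0.417 and Abca1 highest at 2.20, while most members of the adventitial or trophocyte class lie near 1.

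Other differences accompanied these in the subepithelial class. Immediate early genes such as Fos were lower too, with 7 of 10 lower, where 4.28% of all measured genes were. Their median log2 ratio was -0.71, with Fos at 6522 and 3777 CPM. In the lamina propria class 1 of 10 was lower, where 3.11% of all measured genes were, with a median of -0.36. In the adventitial or trophocyte class none was, where 2.01% were, with a median of 0.05. Interferon-responsive genes were higher in the Cre library in all 3 classes. In the subepithelial class 6 of 7 measured ones were higher, where 5.76% of all measured genes were. Isg15, a ubiquitin-like modifier induced by interferon, was at 52.9 and 139.6 CPM there. The 7 general fibroblast markers summed to 12230 and 8341 CPM in the subepithelial class and its own 8 markers to 3501 and 4017 CPM, with none of either list at 0. The 7 adventitial or trophocyte markers summed to 359 and 135 CPM there. Each list held markers that went against its sum. Among them, Pdgfra (916 and 1253 CPM) and Pdpn were higher in Cre cells, Nrg1 (398 and 131 CPM) was lower and Grem1 (15.5 and 27.8 CPM) was higher. The part of these differences in the enzymes' ratios was not tested.

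Cells of cluster 2 were compared apart from the marker classes, since they form most of the subepithelial class. The synthesis sum there was 764 CPM in control and 497 CPM in Cre cells, a ratio of 0.650 (0.616 to 0.6865), and again 7 of 14 measured enzymes were lower and none higher, where 3.56% of all measured genes were lower and 4.80% higher. Hmgcs1 was at 125 and 63.75 CPM, and Msmo1 at 50.4 and 18.2 CPM. The direction was not the same in every cluster. The sum was also lower in cluster 12, a lamina propria cluster (385.5 and 280.3 CPM, ratio 0.727), and in clusters 13, 4 and 9 of the adventitial or trophocyte class, with ratios of 0.794 (0.712 to 0.8855), 0.8996 (0.825 to 0.982) and 0.894 (0.813 to 0.983). It was higher in clusters 0 and 5 of the adventitial or trophocyte class, with ratios of 1.20 (1.09 to 1.32) and 1.23 (1.14 to 1.32), and in cluster 6 of the lamina propria class, with 1.15 (1.04 to 1.27). Of the 21 clusters 11 had at least 100 cells in each library and could be compared in this way.

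In the lamina propria class the enzymes summed to 269.9 CPM in control and 307 CPM (298.5 to 315) in Cre cells, a ratio of 1.137 (1.095 to 1.18). Only Sqle among the 13 measured enzymes was higher by 1.5-fold, at 14.7 CPM (13.2 to 16.4) and 26.3 CPM (23.9 to 28.8), where 5.11% of all measured genes were higher. None was lower, where 3.11% were. The Sqle value was not found within the lamina propria clusters that both libraries filled: its ratios were 1.21, 1.39 and 0.762 in clusters 6, 7 and 12, each with an interval that spans 1, and its log2 ratio over such clusters was 0.18 in place of 0.79. With 10 CPM added it was 0.55, also inside the limit. Sc5d, at 13.4 and 20.1 CPM, and Pmvk, at 13.03 and 20.04 CPM, had ratios of 1.502 (1.28 to 1.76) and 1.54 (1.31 to 1.81), just inside the limit on the log2(CPM + 1) scale. Over lamina propria cells of clusters that both libraries filled, Sc5d had a log2 ratio of 0.62 in place of 0.55, past the limit. That of Pmvk was 0.48 in place of 0.58. Sc5d had ratios of 1.26, 2.005 and 1.17 in clusters 6, 7 and 12, each with an interval that spans 1. Hmgcs1 had the opposite sign, with 42.0 and 34.0 CPM and a ratio of 0.811 (0.729 to 0.9005). Restricted to clusters with at least 100 cells in each library, the log2 ratio of the sum was 0.04 in place of 0.18. Other lists moved in this class too. The 5 red cell and plasma cell genes summed to 86.0 and 367 CPM, the 6 pericyte markers to 40.5 and 76.3 CPM and the 6 leukocyte markers to 6.04 and 11.85 CPM. In the first list Hbb-bs was at 0.582 and 305.6 CPM and Hba-a1 at 0 and 16.3 CPM. Jchain, at 46.5 and 20.4 CPM, Igkc and Igha were lower in Cre cells. Among the pericyte markers Cspg4 alone was lower, at 12.2 and 4.43 CPM. The 7 general fibroblast markers summed to 17328 and 12778 CPM, with Pdgfra and Pdpn higher in Cre cells and the other markers lower. Of these lists, 1 red cell or plasma cell gene and 1 pericyte marker were at 0 in control cells and none in Cre cells. Their part in the enzymes' values was not tested.

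In the adventitial or trophocyte class the enzymes summed to 274.5 and 274.6 CPM, a ratio of 1.001 (0.966 to 1.04). The exception among 10 measured enzymes was Hsd17b7, a sterol reductase, at 13.3 CPM (11.7 to 15.1) and 7.88 CPM (6.92 to 8.93), a ratio of 0.592 (0.492 to 0.711) that lay inside the limit with 10 CPM added (log2 ratio -0.38). It was the only member past 1.5-fold of 20 measured in this class, where 2.01% of all measured genes were lower and 4.56% higher.

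Across all fibroblast-like cells no enzyme passed 1.5-fold in either direction, of 13 measured, against backgrounds of 3.80% higher and 3.12% lower. The sum was 336 and 298 CPM. The subepithelial class made up 15.5% of fibroblast-like cells in control and 6.34% in Cre mice, and held 31.3% and 9.20% of their synthesis UMIs, so the pooled level moves with the share of this class as well as with the levels inside it.

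Among the sensors, Insig1 had the widest difference. In the subepithelial class it was at 91.2 CPM (85.5 to 97.2) in control and 50.9 CPM (43.5 to 59.05) in Cre cells, a ratio of 0.5575 (0.471 to 0.657). In the lamina propria class it was at 96.1 and 102.1 CPM, and in the adventitial or trophocyte class at 49.6 and 54.8 CPM. The ratio was 1.06 (0.996 to 1.13) in the first of these and 1.105 (1.018 to 1.20) in the second, and both log2 ratios changed sign, to -0.08 and -0.04, over clusters with at least 100 cells in each library. In fibroblast-like cells left without a class it was 0.880 (0.795 to 0.972). Insig2, its homologue, was at 53.1 and 39.3 CPM in the subepithelial class, a ratio of 0.741 (0.608 to 0.897), and had ratios of 0.958 and 0.967 in the other two classes.

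The transcription factors themselves followed a different order. Srebf2 was at 89.2 and 82.5 CPM in the subepithelial class, with a ratio of 0.925 (0.806 to 1.06), and at 41.7 and 62.8 CPM in the lamina propria class, with a ratio of 1.51 (1.38 to 1.65) that lay just inside the limit on the log2(CPM + 1) scale. Its adventitial or trophocyte level was 48.8 and 49.8 CPM. Srebf1, which encodes the SREBP1 proteins that act more on fatty acid genes, was at 36.9 and 33.1 CPM in the subepithelial class and 33.8 and 42.8 CPM in the lamina propria class. Over lamina propria cells of clusters with at least 100 cells in each library, the log2 ratio of Srebf2 was 0.32 in place of 0.58. That of Srebf1 was 0.04 in place of 0.33. Srebf2 had ratios of 1.33, 1.63 and 0.8565 in clusters 6, 7 and 12, and Srebf1 had 1.22, 1.24 and 0.6125. Scap was at 23.0 and 22.5 CPM in the subepithelial class and at 17.05 and 13.2 CPM in the adventitial or trophocyte class, where its ratio was 0.774 (0.665 to 0.9015).

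Of the efflux transporters, Abca1, which moves cholesterol out of the cell to lipoprotein acceptors, had ratios above 1 in each class. Its levels were 27.2 and 59.7 CPM in the subepithelial class, a ratio of 2.20 (1.825 to 2.64), and 24.3 and 41.1 CPM in the lamina propria class, a ratio of 1.69 (1.51 to 1.90). In the adventitial or trophocyte class they were 50.45 and 65.2 CPM, with a ratio of 1.29 (1.19 to 1.40) below the 1.5-fold limit. Within clusters that both libraries filled, the difference was clear of 1 in cluster 2 alone, at 2.115 (1.75 to 2.56). Lamina propria clusters 6, 7 and 12 had ratios of 1.15, 1.15 and 1.225, all with intervals that span 1. Adventitial or trophocyte clusters 0, 4, 5, 9, 13 and 14 had 1.05, 1.09, 0.993, 1.21, 1.30 and 1.33, also with intervals that span 1. Over adventitial or trophocyte cells of clusters that both libraries filled, the log2 ratio was 0.33 in place of 0.36. Over lamina propria cells of such clusters the log2 ratio was 0.39 in place of 0.74, inside the limit, and with 10 CPM added to the whole class it was 0.58, also inside it. In the control library the adventitial or trophocyte class thus held the most Abca1, and in the Cre library its level and the subepithelial level had overlapping intervals. Abcg1, the second transporter, was rare, at 3.01 and 6.505 CPM in the subepithelial class with a ratio of 2.16 (1.19 to 3.86). In the lamina propria class its ratio was 0.925 with an interval that spans 1.

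Mylip, which marks lipoprotein receptors for degradation, went the opposite way from Abca1. It was at 98.8 and 76.9 CPM in the subepithelial class, 92.1 and 65.6 CPM in the lamina propria class and 58.1 and 52.4 CPM in the adventitial or trophocyte class, with ratios of 0.778, 0.713 and 0.901. All 3 intervals lay below 1 and none of the ratios passed the 1.5-fold limit. Over clusters with at least 100 cells in each library the log2 ratios were -0.11, -0.29 and -0.05, in place of -0.36, -0.48 and -0.15. In cluster 2 the ratio was 0.901 (0.779 to 1.04) and in cluster 13 it was 1.19 (0.957 to 1.49). Fibroblast clusters 4, 5 and 12 had intervals below 1.

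The transport genes were led by Npc2, a lysosomal cholesterol carrier and the member with the most UMIs. It was at 248.7 and 280.6 CPM in the subepithelial class, 442 and 560.5 CPM in the lamina propria class and 414.5 and 569 CPM in the adventitial or trophocyte class, with ratios of 1.13, 1.27 and 1.37. Npc1, the membrane protein to which Npc2 hands cholesterol, had ratios of 0.815 (0.575 to 1.134), 0.862 (0.745 to 0.997) and 0.831 in the same order. Its ratio was below 1 in fibroblast clusters 0, 2, 4, 5, 6 and 14, with intervals below 1 in clusters 0 and 4 alone. It was 1.21, 1.18, 1.19 and 1.36 in clusters 7, 9, 12 and 13, with intervals that span 1. Stard4, a cytosolic sterol carrier, was at 20.8 and 13.9 CPM in the subepithelial class, a ratio of 0.669 (0.477 to 0.921). Soat1, which esterifies cholesterol for storage, lay between 29.3 and 36.7 CPM in all 3 classes and both libraries, and its ratios had intervals that span 1.

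Ch25h was highest in the same class as the synthesis enzymes. The subepithelial class held it at 61.6 CPM (56.9 to 66.6) in control and 64.2 CPM (55.9 to 73.3) in Cre cells, the lamina propria class at 16.1 and 22.0 CPM, and the adventitial or trophocyte class at 7.58 and 8.36 CPM. The subepithelial level was 3.82 times that of the lamina propria class in the control (3.35 to 4.36) and 2.92 times in the Cre library (2.46 to 3.47). Between libraries the ratio was 1.04 (0.888 to 1.22) in the subepithelial class, 1.36 (1.175 to 1.58) in the lamina propria class and 1.10 (0.891 to 1.37) in the adventitial or trophocyte class. Isg15 had ratios of 2.64, 2.47 and 3.61 in these classes. Over lamina propria cells of clusters that both libraries filled, the log2 ratio of Ch25h was 0.77 in place of 0.42, past the 1.5-fold limit. In clusters 6, 7 and 12 its ratios were 1.32, 1.62 and 1.30, each with an interval that spans 1. Over all fibroblast-like cells Ch25h was nevertheless lower in the Cre library, at 20.8 and 16.5 CPM, a ratio of 0.791 (0.728 to 0.860), while the ratio in each of the 3 classes was above 1. The subepithelial class held 47.8% of the Ch25h UMIs of control fibroblast-like cells and 22.05% of those of Cre cells. In cluster 2 alone Ch25h was at 75.9 and 62.6 CPM, a ratio of 0.824 (0.701 to 0.965), so its direction in subepithelial cells depends on how those cells are drawn.

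**Figure D3:**
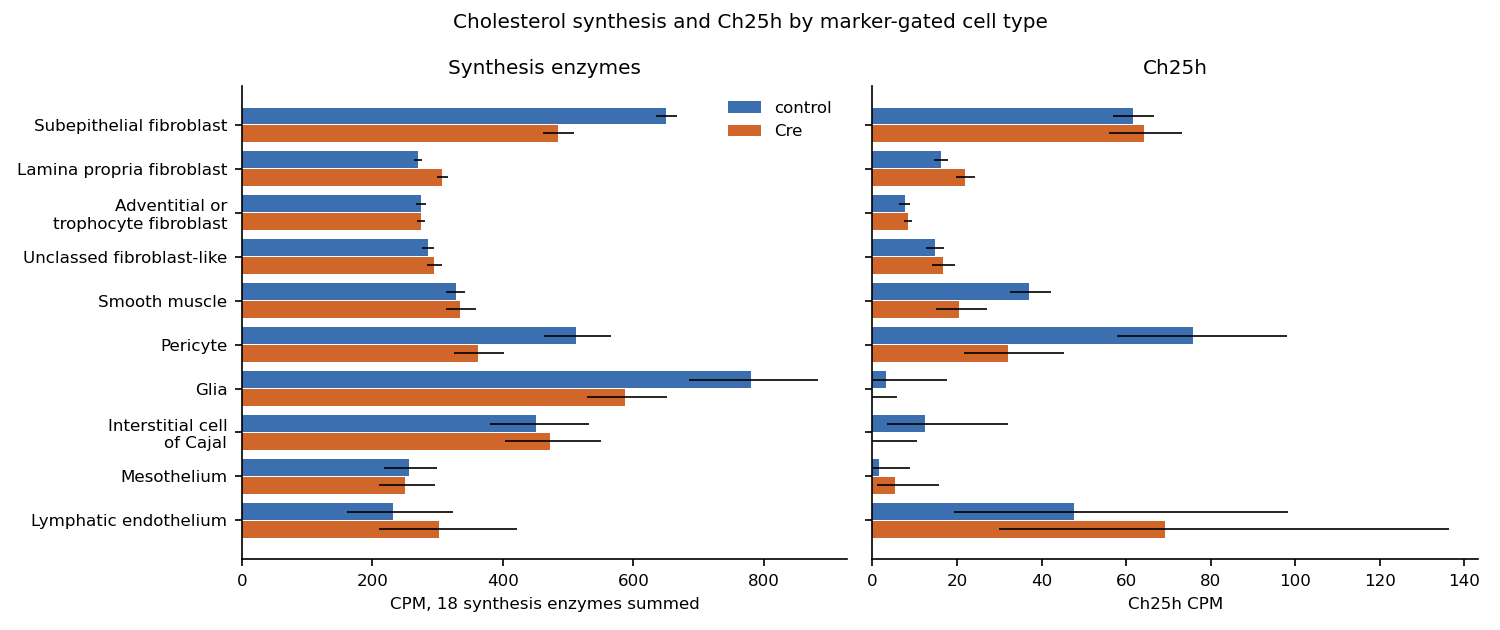
Summed synthesis enzymes and Ch25h in CPM for each cell type named from markers, control in blue and Cre in orange, with 95% Poisson bars for counting error. Among the fibroblast classes the subepithelial class is highest for both, at 651 and 484 for the enzymes and 61.6 and 64.2 for Ch25h, while glia are high for the enzymes and near 0 for Ch25h.

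**Figure D4:**
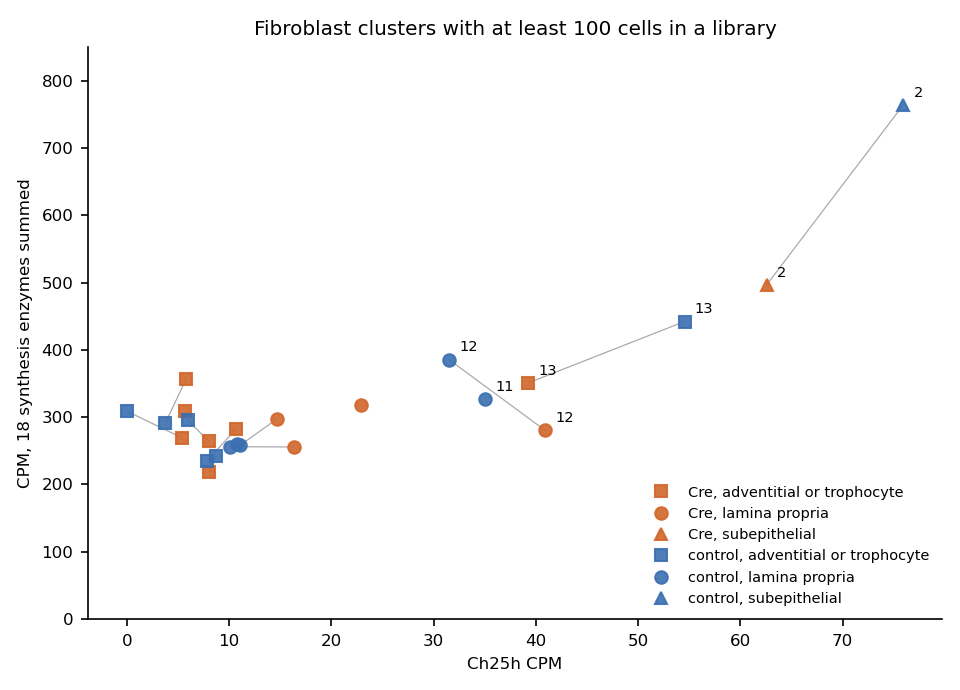
Summed CPM of the 18 synthesis enzymes against Ch25h CPM in fibroblast clusters with at least 100 cells in a library, control in blue and Cre in orange, marker shapes for the class and thin lines joining a cluster present in both libraries; no error is drawn. Cluster 2 lies highest on both axes in each library, at 764 and 75.9 in control and 497 and 62.6 in Cre cells, and fibroblast clusters with Ch25h at or below 22.9 have sums between 218 and 357.

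Among subepithelial cells 21.3% (19.2 to 23.5) had a Ch25h UMI in the control library and 25.8% (21.9 to 29.96) had it in the Cre library, whose median depths were 6707 and 6439 UMIs. With every cell thinned to 2000 UMIs and 59 and 28 shallower cells left out, these shares were 9.18% and 12.9%. The thinned shares were 2.87% and 3.61% in the lamina propria class and 1.31% and 1.55% in the adventitial or trophocyte class, with 110 and 96, and 202 and 134, shallower cells left out. Glia, which should lack the gene, had a UMI in 1 of 69 control cells and in 0 of 117 Cre cells at median depths of 4215 and 5074 UMIs. That 0 allows up to 4.78 CPM. Intervals here are Clopper-Pearson intervals.

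Synthesis levels were also compared between cells with and without a Ch25h UMI. In the control subepithelial class, after thinning, the enzymes summed to 785 CPM in 128 cells with and 605 CPM in 1267 cells without a Ch25h UMI, a ratio of 1.30 (1.11 to 1.503). In the Cre library the values were 422 CPM in 58 cells and 477 CPM in 391 cells, a ratio of 0.886 (0.644 to 1.195). Without thinning the ratios were 1.23 (1.17 to 1.30) in control and 1.09 (0.981 to 1.22) in Cre cells, and with at least 2 Ch25h UMIs required in thinned control cells, 28 cells, the ratio was 1.21 (0.864 to 1.65). In the lamina propria and adventitial or trophocyte classes the intervals of this ratio spanned 1 in both libraries after thinning. Cells of a class share a library and are not replicates, and the difference between the libraries in this ratio was not tested. The subepithelial class also mixed clusters. Cluster 2 made up 75.65% of it in control and 88.9% in Cre cells, and cluster 11 made up 13.7% and 0.629%. In control cells cluster 2 had a synthesis sum of 764 CPM and Ch25h at 75.9 CPM, against 326 and 35.0 CPM in cluster 11. The part of this mixture in the ratios was not tested.

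Genes that work next to the pathway were described from lists of their own. Of 11 fatty acid synthesis genes, 10 were measured in fibroblast-like cells, 9 had log2 ratios below 0 and none passed 1.5-fold. Of all 9016 measured genes 5503 lay below 0, 3.80% were higher by 1.5-fold and 3.12% lower. The lowest of the list were Elovl6, a fatty acid elongase, at 28.15 and 20.3 CPM, and Fads2, a desaturase, at 37.6 and 27.7 CPM. The highest were Acly, which supplies cytosolic acetyl-CoA, at 72.4 and 71.4 CPM, and Fads1 at 35.9 and 37.2 CPM. In the subepithelial class none of 11 measured genes of this list passed, where 5.76% of all measured genes were higher and 4.28% lower. The median log2 ratio of the list was 0.15, against 0.07 for all measured genes and -0.57 for the cholesterol enzymes. The list was mixed, with 6 genes above 0 and 5 below, where 5685 of all 9383 measured genes were above 0. Fads2, with a ratio of 0.666 (0.529 to 0.833), Fasn and Elovl6 had intervals below 1. Acaca, Scd2 and Me1 had intervals above 1. In the adventitial or trophocyte class 3 of 10 were lower, where 2.01% of all measured genes were. They were Fasn (34.95 and 22.6 CPM), Scd1 (61.2 and 40.1 CPM) and Scd2 (68.8 and 39.9 CPM), named after their values were seen. In that class the cholesterol enzymes had a ratio of 1.001.

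None of 8 measured genes of the isoprenoid branch and none of 5 measured genes of SREBP processing passed 1.5-fold in fibroblast-like cells. Of all measured genes 3.80% were higher there and 3.12% lower. Rabggtb and Fnta, subunits of prenyl transferases, were lowest in the first list with ratios of 0.812 and 0.894, and Dhdds, of dolichol synthesis, and Rabggta highest with 1.11 and 1.05. In the second list Mbtps1 had a ratio of 0.868, and Rnf139 and Mbtps2 were highest with 1.01 and 0.966. Mbtps1 and Mbtps2 encode the proteases that release SREBP, and Rnf139 encodes a ubiquitin ligase of the endoplasmic reticulum.

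Sterol handling genes gave 2 of 12 higher in fibroblast-like cells, where 3.80% of all measured genes were higher. They were Cyp7b1, an oxysterol hydroxylase, at 16.1 and 30.2 CPM, a ratio of 1.87 (1.73 to 2.02), and Nr1h3, which encodes LXR alpha, at 11.5 and 19.05 CPM, a ratio of 1.65 (1.504 to 1.81). The lowest were Lipa, the lysosomal cholesterol esterase, and Gramd1a, a sterol carrier between membranes, with ratios of 0.823 and 0.894. By class, Cyp7b1 was at 20.2 and 35.2 CPM in the subepithelial, 19.7 and 46.6 CPM in the lamina propria and 6.199 and 19.4 CPM in the adventitial or trophocyte class. Within clusters it was at 18.5 and 39.6 CPM in cluster 2. It was at 4.90 and 8.35 CPM in cluster 0, 16.7 and 28.1 CPM in cluster 4 and 0.826 and 1.82 CPM in cluster 5. Clusters 7, 13 and 14 had 13.5 and 20.5, 16.8 and 24.7, and 32.4 and 55.7 CPM. The libraries were closer in cluster 6, at 24.96 and 29.3 CPM, and in cluster 12, at 40.97 and 39.0 CPM. In cluster 9 the level was lower in Cre cells, at 20.8 and 14.8 CPM. Cre cells of cluster 1 held Cyp7b1 at 50.4 CPM. In the subepithelial class Cyp27a1, the sterol 27-hydroxylase, was the other higher gene of 11 measured, where 5.76% of all measured genes were higher, at 92.2 and 152.6 CPM, and was named after its value was seen.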

How the data were processed

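Each library was made with the 10x Chromium 5' v2 chemistry, per the labels' protocols. The values are the authors' raw UMI counts, deposited as a matrix of genes by barcodes per library and made with Cell Ranger 8.0.1 on GRCm39, per the submitters' processing notes; the annotation is not given in the sources used here. Barcodes with under 500 genes or over 10% mitochondrial UMIs were left out (330 control, 214 Cre), as were doublets called by Scrublet in scanpy 1.11.5 (393 and 111). A cell with UMIs of at least 3 markers of another type was given that type. Remaining cells with at least 3 fibroblast markers were placed by their highest mean scaled marker level (capped at 3), with at least 2 markers detected and a lead of 0.25 or more over the next class. Leiden clusters (2000 variable genes, 30 components, 15 neighbours, resolution 1) left out the members and the interferon genes. UMIs were summed per library and class and divided by all UMIs of that class to give CPM; levels of different genes were not compared per length, since 5' counts do not scale with it. Poisson intervals (levels), binomial intervals (ratios) and Clopper-Pearson intervals (shares) cover counting error only; the ratio code was tested on simulated data. log2 ratios use log2(CPM + 1), which understates changes of low genes.

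The members and lists were chosen with earlier results of these data known. Members with a mean of at least 10 CPM in fibroblast-like cells are given with values; the 2 highest and 2 lowest genes of each neighbouring list are named, and Isg15 as the interferon reference; 1 gene that this rule names is not reported here. Alternatives changed the CPM added, the CPM minimum, the scaling, the cell filters, the doublet removal, the gate and the thinning. No test between genotypes was possible with 1 library each.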

Additional observations from a re-analysis of the deposited data

Results flagged for a closer look

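Counting intervals lay on opposite sides of 1 in different fibroblast classes for 4 members, and the difference between classes was not tested in any of them. Fdft1 had a Cre to control ratio of 1.25 in the lamina propria class and 0.617 in the subepithelial class, so that the ratios differed 2.03-fold. Cyp51 had 1.28 and 0.700 in the same classes, which differ 1.83-fold. Lamina propria clusters did not share a direction for Fdft1 and Cyp51. Their ratios were 1.745 and 1.415 in cluster 6, but 0.558 (0.340 to 0.908) and 0.4555 (0.314 to 0.655) in cluster 12. In cluster 7 both intervals span 1. Over lamina propria cells of clusters with at least 100 cells in each library their log2 ratios were 0.23 and 0.15. Insig1 had 1.11 in the adventitial or trophocyte class and 0.558 in the subepithelial class, a 1.98-fold difference. Idi1 had 1.15 and 0.625 in those classes, a 1.83-fold difference. Over clusters with at least 100 cells in each library the adventitial or trophocyte log2 ratios of Insig1 and Idi1 changed sign, from 0.14 to -0.04 and from 0.19 to -0.05, so neither then lay above 1.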

How the results depend on the processing

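No paired analysis was possible because each genotype has 1 library, and for the same reason no replicate could be left out. Of 188 recomputed summary values 143 stayed within counting error or 1.5 times a count and 45 moved; of 887 for single members 830 stayed and 57 moved. The sign changed in 10 of the 188 and in 35 of the 887 (23 member values), none of them past 1.5-fold at first. Among these, with classes weighted alike, Sqle and Ch25h in fibroblast-like cells went from -0.26 to 0.14 and from -0.32 to 0.14 on the log2 scale. Ch25h in the subepithelial class went from 0.06 to -0.28 with the class of the Leiden cluster. Without thinning, the log2 ratio of synthesis CPM in cells with over cells without Ch25h went from -0.18 to 0.13 in the Cre subepithelial class. With 10 CPM added, the enzymes' median log2 ratio was -0.15 in fibroblast-like, 0.13 in lamina propria and -0.39 in subepithelial cells; 3 members were lower in the subepithelial class, 0 higher in the lamina propria and 0 lower in the adventitial or trophocyte class. With a minimum of 50 CPM, 3 members were lower in the subepithelial class and 0 higher in the fibroblast-like, subepithelial and lamina propria groups, and 0 were lower in the adventitial or trophocyte class; no median could be given outside the subepithelial class. With no minimum the median was -0.17 in fibroblast-like and 0.052 in adventitial or trophocyte cells, and 2 members were higher in the subepithelial class. Median-of-ratios scaling gave -0.16 for the fibroblast-like median and -0.125 for the log2 ratio of its sum. Taking the class of the Leiden cluster gave a subepithelial median of -0.69 and sum of -0.62, 4 members higher and 1 lower in the lamina propria class, and a Ch25h UMI in 24.5% of control subepithelial cells. A gate margin of 0.5 gave a subepithelial median of -0.67 and sum of -0.52. Weighting classes alike gave a fibroblast-like median of -0.25 and 1 member lower. Keeping clusters with at least 100 cells in each library, an alternative chosen after seeing the data, gave medians of -0.39 (fibroblast-like, 2 members lower), -0.75 (subepithelial) and -0.097 (adventitial or trophocyte), and sums of -0.33, -0.58 and -0.092, with 0.038 in the lamina propria class. Without Hmgcs1 the sum was -0.14 in fibroblast-like and 0.26 in lamina propria cells. Thinning to 2000 UMIs gave Ch25h shares of 3.24% and 3.16% (fibroblast-like), 9.18% and 12.9% (subepithelial), 2.87% and 3.61% (lamina propria) and 1.31% and 1.55% (adventitial or trophocyte). Setting cells with at least 2 Ch25h UMIs against cells with none, the log2 ratio of synthesis CPM in fibroblast-like cells was 0.84 (control) and -0.45 (Cre), from 45 and 28 cells. As ratios these were 1.79 (1.33 to 2.36) and 0.731 (0.378 to 1.28), and the Cre interval spans 1. With 1 UMI required the ratios were 1.58 (1.40 to 1.79) in control and 1.07 (0.895 to 1.26) in Cre cells. Apart from settings whose construction changes the cells or genes counted, the cause of these moves was not tested. Depth limits Mvd, Lss, Tm7sf2 and Abcg1, each under 10 CPM in every fibroblast class.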

Other observations

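Outside the fibroblast-like cells, smooth muscle cells were the most frequent type, and cells of the glia and pericyte types were few. Glia held the highest synthesis sum of any type, at 780 CPM (686 to 884) in 69 control cells and 588 CPM (529 to 651) in 117 Cre cells, with Srebf1 at 186 and 111.5 CPM. Cells given the pericyte type, by at least 3 of 6 markers, held 512 and 362 CPM in 93 and 99 cells, a ratio of 0.7065 (0.610 to 0.818). Their 3 squalene enzymes were at 100.4 and 45.4 CPM. No cluster was made up mostly of such cells, and the 6 pericyte markers also summed to 113 and 137 CPM in the subepithelial class. Whether these cells are pericytes was not tested. Ch25h in these cells was at 75.9 and 32.0 CPM, a ratio of 0.421 (0.263 to 0.661), and a UMI of it was found in 25 of 93 and 15 of 99 cells. Smooth muscle cells held a synthesis sum of 328 and 335 CPM, a ratio of 1.02 (0.941 to 1.11), while the share of cells with a Ch25h UMI was 15.8% of 831 and 11.7% of 282 cells.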
